A study of Mus musculus with 6 samples.

Results

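The SLAM family (signalling lymphocytic activation molecules) and its adaptor SAP were followed here in 8 of the 55487 genes listed in each deposited table: Slamf1, Slamf6, Slamf7, Cd48, Cd84, Ly9, Cd2, which encode surface receptors, and Sh2d1a, which encodes SAP. Members were taken by gene symbol. The set was chosen from this same comparison, in which Slamf6 stood among the largest decreases, so the members' differences between the groups are given as a description and not as independent evidence. RNA-seq was done on CD8+ T cells of C57BL/6 mice, kept for 48 h either with NaCl (control, 3 libraries) or with 5 mM itaconate (3 libraries), the dicarboxylic acid that activated macrophages make. The sources used here do not give the origin of the replicates (1 culture or several, 1 mouse or several), so a p-value here speaks only of how these 6 libraries vary, which could be technical variation.

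SLAM receptors are immunoglobulin-domain proteins through which blood cells recognise each other. Most bind a copy of themselves on the facing cell, while CD48, which is held in the membrane by a lipid anchor, is bound by CD2 and by the SLAM receptor Cd244a. The receptors signal through tyrosines in their cytoplasmic tails that lie in a motif called the immunoreceptor tyrosine-based switch motif. SAP, a small protein made of little more than an SH2 domain, binds that motif and brings the kinase FYN to it, and without SAP the same tails can bind phosphatases instead. In CD8 T cells the pathway is known for its part in killing of virus-infected B cells, and Slamf6 is widely used as a surface marker of stem-like CD8 T cells.

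The switch motif is what ties the receptors to SAP or, for Slamf7, to the SAP relative EAT-2. The motif's coding sites are therefore shown for the members that hold it. The pattern T-x-Y-x-x-V/I was searched in the annotated coding sequence of 1 transcript per gene (GENCODE M21, GRCm38), after the most hydrophobic stretch, which stands in for the membrane span. Slamf1, Slamf6, Cd84 and Ly9 each held 2 sites, Slamf7 held 1, and Cd48, Cd2 and Sh2d1a held none. Of 21777 mouse coding sequences, 7.9% held the pattern at least once anywhere and 0.6% held it 2 or more times. Each site is printed as its 6 codons, 5′ to 3′ on the coding strand, with the codon of the tyrosine in capitals.
Slamf1 tyrosine 288, chr1:171792339-171792356, plus strand: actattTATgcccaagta
Slamf1 tyrosine 335, chr1:171799588-171799605, plus strand: acagttTATgccagtgtg
Slamf6 tyrosine 295, chr1:171939437-171939454, plus strand: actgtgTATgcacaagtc
Slamf6 tyrosine 319, chr1:171941664-171941681, plus strand: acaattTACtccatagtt
Slamf7 tyrosine 302, chr1:171636327-171636344, minus strand: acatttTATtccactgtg
Cd84 tyrosine 265, chr1:171884605-171884622, plus strand: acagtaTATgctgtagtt
Cd84 tyrosine 300, chr1:171885601-171885618, plus strand: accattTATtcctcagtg
Ly9 tyrosine 587, chr1:171593912-171593929, minus strand: actccaTATgataaagtg
Ly9 tyrosine 625, chr1:171593438-171593455, minus strand: acaatcTACtgctctgtg
Each of these sites lies within a single exon. In the test described below, Slamf1, Slamf6 and Ly9 (2 sites each) and Slamf7 (1 site) passed, and Cd84 (2 sites) did not. Cd48, Cd2 and Sh2d1a, which hold none, did not pass either. As the members were chosen with this comparison known, nothing about the sites is read from these calls.

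Library totals ranged from 18280217 to 31643408 expected counts, and each member was covered by 251 or more counts in every library. Levels are CPM, counts scaled to library size with edgeR's TMM factors, and levels of different genes are compared as TPM, which is scaled by transcript length. Genes were called at an adjusted p under 0.05 (edgeR's quasi-likelihood test, Benjamini-Hochberg over 12350 tested genes). Control replicate 1 stood apart in fragment length, with a gap between transcript length and effective length of 258.64 bases against 229.21 to 239.06 in the other libraries. All 8 members passed the filter on low counts.

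Of the 8 members, 4 fell with itaconate (Slamf6, Ly9, Slamf7 and Slamf1), none rose and 4 did not pass. Among all tested genes 5.36% were called lower, 6.68% higher and 12.0% either way. The median log2 fold change of the members was -0.26, against 0.01 for all tested genes. For the 4 that fell, every control library lay above every itaconate library in CPM, and for the 4 others the CPM of the groups overlapped. Of all tested genes 31.2% had no overlap in CPM. As the members were chosen with this comparison known, nothing is read from these counts. RNA of a bulk culture cannot tell fewer cells with a transcript from less of it in each cell.

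Slamf6 (Ly108), a receptor that binds itself and carries a pair of SAP-binding sites, had the largest difference of the 8. It stood at 34.3, 26.0 and 25.2 CPM in control replicates 1, 2 and 3, and at 12.9, 13.9 and 12.6 CPM in itaconate replicates 1, 2 and 3. Every control library lay above every itaconate library, and the lowest control value was well clear of the highest treated one. The fitted log2 fold change was -1.12 ± 0.119 (SE), a 2.17-fold lower level, and 74 of the 12350 tested genes (0.6%) had a more negative value. The spread came mostly from control replicate 1, and without that library the log2 fold change was -0.96. The values rest on 539 to 925 counts in control and 251 to 294 counts in itaconate libraries.

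Ly9 (CD229), a large self-binding receptor with a pair of motif sites, is the most abundant of the 4 that fell. It measured 159, 145 and 136 CPM in the control libraries and 109, 98.8 and 109 CPM in the itaconate libraries, with no overlap. Its mean fell from 147 ± 11.6 to 105.7 ± 5.97 CPM (SD, n = 3), a log2 fold change of -0.48 ± 0.063 (SE). Ly9 overlaps Cd244a on the opposite strand, and how the authors treated strand is not given in the sources used here. Cd244a itself was listed at 0.222 to 0.544 CPM. The other members' overlapping genes were as low: Gm37065 (Slamf6) reached 0.483 CPM, Gm37787 (Slamf7) 0.396 CPM and Tenm1 (Sh2d1a) 0.334 CPM.

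Slamf7 (CRACC), a self-binding receptor of cytotoxic lymphocytes that couples to the SAP relative EAT-2, had the tightest values. Its control libraries gave 44.2, 41.9 and 43.2 CPM and its itaconate libraries 32.4, 32.6 and 32.6 CPM. The coefficient of variation was 2.59% in control and 0.37% in treated libraries, and the groups did not overlap. The treated values rest on 587 to 761 counts, and counting alone scatters such values by more than 0.37%. That closeness is therefore no measure of the spread between libraries. The log2 fold change was -0.41 ± 0.062 (SE), a 1.32-fold lower level.

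Slamf1 (CD150), the receptor that gave the family its name, measured 34.4, 30.2 and 27.2 CPM with NaCl, and 25.4, 24.4 and 21.1 CPM with itaconate. The groups did not overlap, but the lowest control and the highest treated library were close. Its log2 fold change was -0.37 ± 0.098 (SE), with an edgeR adjusted p of 0.0235. Slamf1 no longer passed when 1 of 4 libraries was left out: the edgeR adjusted p was then 0.0841 (control replicate 1), 0.0827 (control replicate 2), 0.0627 (itaconate replicate 2) or 0.113 (itaconate replicate 3). It also failed with offsets for effective length (0.0976) and on log2(TPM + 1) values with limma (0.134).

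**Figure D1:**
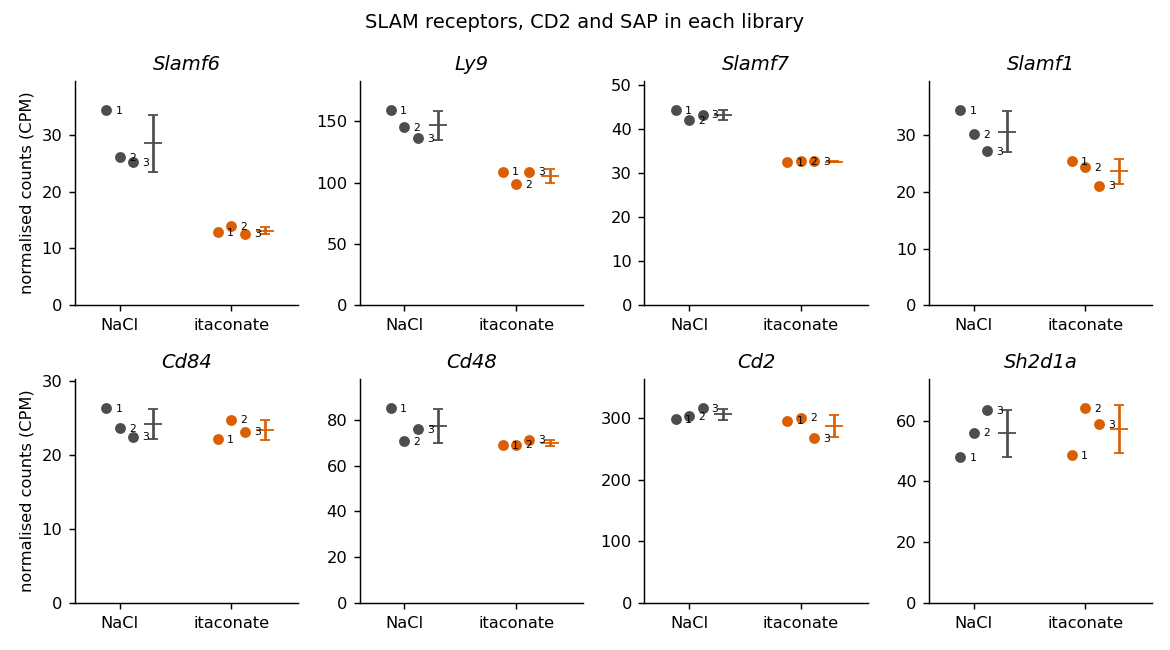
Normalised counts (CPM, linear axes from 0) of the 8 genes in each library, numbered by replicate, with the group mean and SD (n = 3) to the right of the points. Slamf6, Ly9, Slamf7 and Slamf1 show no overlap between NaCl and itaconate libraries, and Cd84, Cd48, Cd2 and Sh2d1a overlap.

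The other 4 members did not pass. Cd48, the ligand of CD2, measured 85.2, 70.7 and 76.0 CPM with NaCl and 68.9, 69.2 and 71.3 CPM with itaconate, and itaconate replicate 3 lay above control replicate 2. Its log2 fold change was -0.15 ± 0.067 (SE), between -0.22 and -0.08 when any 1 library was left out.

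Cd84, a self-binding receptor and the family member that lies nearest to Slamf6 on the chromosome, measured 26.3, 23.6 and 22.4 CPM with NaCl and 22.1, 24.7 and 23.1 CPM with itaconate. The groups were interleaved, and the log2 fold change was -0.05 ± 0.086 (SE). Cd84 and Slamf1 each carry as many motif sites as Slamf6 and lie near its control level in TPM, so ratios within each library are given, for their difference between groups and not as levels. The CPM of Slamf6 over that of Cd84 was 1.31, 1.10 and 1.12 with NaCl, and 0.585, 0.563 and 0.545 with itaconate. The CPM of Slamf6 over that of Slamf1 was 0.999, 0.864 and 0.924 with NaCl, and 0.509, 0.572 and 0.598 with itaconate. Neither ratio overlapped between the groups, which restates the fall of Slamf6 and is not further evidence.

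Cd2, the adhesion receptor that brings T cell and target together through CD48, measured 299, 304 and 317 CPM with NaCl and 296, 301 and 268 CPM with itaconate. The groups overlapped, and itaconate replicate 3 was the lowest of the 6 libraries. The log2 fold change was -0.09 ± 0.052 (SE).

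Sh2d1a, which encodes SAP, measured 48.0, 56.1 and 63.4 CPM with NaCl and 48.7, 64.2 and 58.9 CPM with itaconate. Replicate 1 was the lowest in both groups, and the difference between groups was small beside the spread within them. The log2 fold change was 0.03 ± 0.129 (SE), and its sign turned under 4 of 16 alternative analyses.

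**Figure D2:**
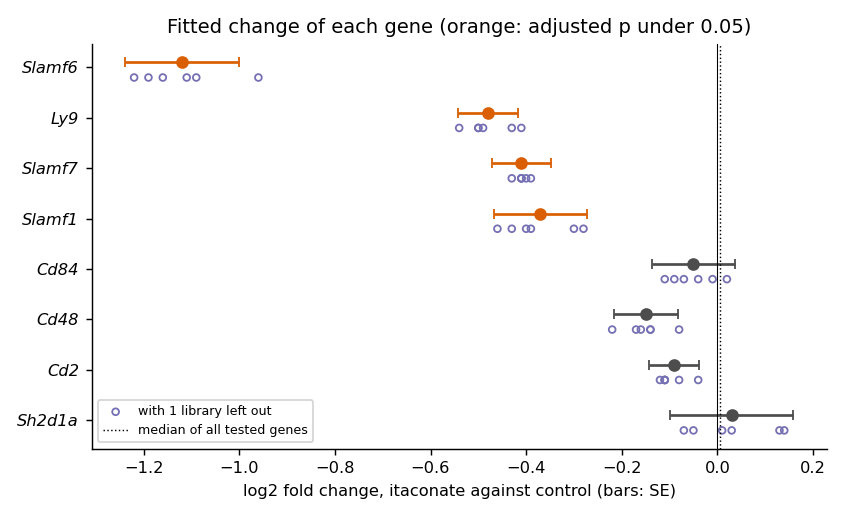
Fitted log2 fold change of each gene, itaconate against control, with its standard error (filled points) and the values with 1 library left out (open circles); the dotted line is the median of all tested genes. Slamf6 lies between -1.22 and -0.96 with any 1 library left out, while the range of Sh2d1a spans 0.

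Control replicate 1 gave the highest of the 3 control values for 6 of the 8 members (all but Sh2d1a and Cd2), and for 34.8% of all tested genes. This is the library with the longer fragments, and the part of that difference in the members' values was not tested. Leaving it out, Slamf6, Ly9 and Slamf7 still passed (log2 fold changes -0.96, -0.41 and -0.39), and Slamf1 did not (-0.28).

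On the TPM scale, which allows genes to be compared, Cd2 was by far the most abundant member. In control libraries it ranged from 420 to 429 TPM, above Sh2d1a (94.9 to 118), Cd48 (94.3 to 116) and Ly9 (74.9 to 91.6). Sh2d1a and Cd48 overlapped and so are not ordered, and Ly9 lay below both. Slamf7 (23.6 to 27.3 TPM), Slamf6 (16.6 to 23.8), Cd84 (12.9 to 17.1) and Slamf1 (13.0 to 17.6) formed the low end, where each overlapped the next. In itaconate libraries Slamf6 moved to the bottom of the order, at 6.62 to 8.47 TPM. It lay below Slamf1 (10.1 to 12.5), Cd84 (13.1 to 14.2) and Slamf7 (15.9 to 19.4), with no overlap between these neighbours. Cd2 (352 to 403 TPM) and Cd48 (85.1 to 90.4 TPM) lay below their control ranges there, whereas in CPM their groups overlapped. The share of all tested genes without overlap in TPM was not counted.

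The TPM of the 7 receptors summed to 722, 672 and 661 in control and 604, 575 and 550 in itaconate libraries. The largest part of that drop was Cd2, which did not pass, with means of 423 ± 4.78 and 380 ± 26 TPM (SD, n = 3). Cd48, which did not pass either, had means of 102.5 and 88.4 TPM. On log2(TPM + 1) values the median log2 fold change of all tested genes was -0.05, against 0.006 in the main analysis. Cd2 made up 61.9% ± 2.2 (SD, n = 3) of that sum with NaCl and 65.9% ± 1.7 with itaconate. The share of Slamf6 was 2.81% ± 0.42 in control and 1.30% ± 0.22 with itaconate, and that of Ly9 was 12.1% ± 0.71 and 10.1% ± 0.68. Cd48 held 14.9% ± 1.1 and 15.4% ± 0.82.

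The tables also give the mean length of each gene's transcripts, weighted by their estimated abundance. TPM is scaled by this length, so it is not independent of the choice of members and is given as a description. Annotated Slamf6 transcripts run from 346 to 5729 bases, and the protein-coding ones include forms of 984, 2485 and 5729 bases. The estimated mean length was 2088, 2103 and 2068 bases in control libraries and 2648, 2450 and 2008 bases in itaconate libraries. Both itaconate replicates 1 and 2 lay above all controls, and itaconate replicate 3 lay below them, so the groups overlapped (two-sided exact permutation test, p = 0.4; the smallest p that 3 against 3 can give is 0.1). Of all tested genes 7.14% had a larger relative change in mean length. The ratio of group means for Slamf6 was 0.461 on the CPM scale and 0.386 on the TPM scale, which divides by that length. Slamf7 varied within both groups, from 2148 to 2486 bases in control and from 2200 to 2757 bases in itaconate libraries, and Ly9 and Slamf1 varied little.

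**Figure D3:**
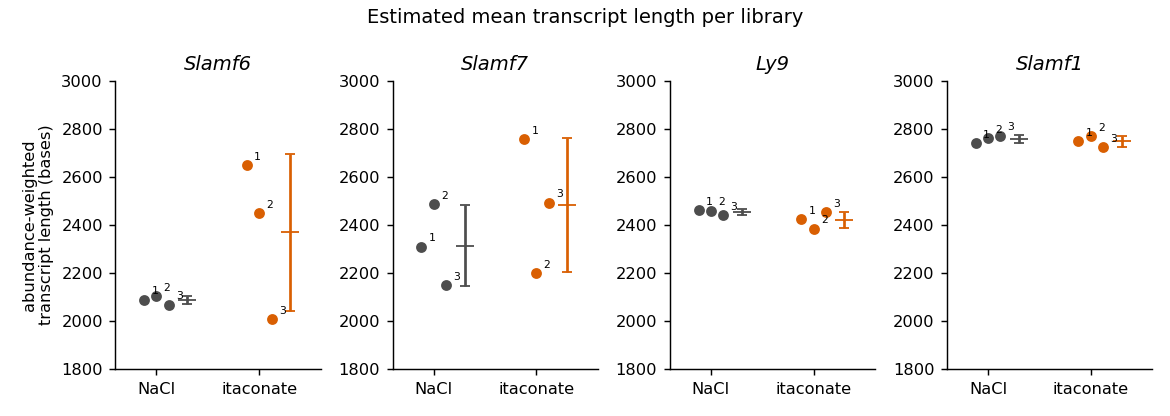
Abundance-weighted transcript length (bases, on an axis that does not start at 0) of the 4 genes that fell, per library, with mean and SD (n = 3). For Slamf6 the control libraries lie between 2068 and 2103 bases while the itaconate libraries spread from 2008 to 2648.

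Of the 8 members, 6 lie on mouse chromosome 1, within 365 kb (GRCm38, chr1:171588624-171953170), in the order Ly9, Slamf7, Cd48, Slamf1, Cd84 and Slamf6. Slamf6 (ENSMUSG00000015314) spans chr1:171917515-171953170 on the plus strand and Ly9 (ENSMUSG00000004707) spans chr1:171588624-171607410 on the minus strand. Among genes that are not members, 1 tested gene lies inside this span, Gm10521, between Cd84 and Slamf6, with mean levels of 0.951 CPM (NaCl) and 0.761 CPM (itaconate; edgeR adjusted p 0.647). Cd2 lies on chromosome 3 (chr3:101275899-101287939) and Sh2d1a on chromosome X (chrX:42502453-42529330). The genes that fell were not contiguous: Cd48 lies between Slamf7 and Slamf1, and Cd84 between Slamf1 and Slamf6.

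To see whether genes around the cluster moved with it, the span of all SLAM family genes on that chromosome was widened by 500 kb on each side. It held 27 tested genes that are not members, of which 1 rose, none fell and 26 did not pass, beside 12.0% called either way among all tested genes. Their median log2 fold change was 0.07. Several of them averaged under 1 CPM in both groups, with SE of 0.404 (Gm10521) to 0.546 (Gm37154). In those genes a log2 fold change like that of most members that fell could not be resolved. The riser was Pea15a, a small phosphoprotein that binds ERK, from 17.4 ± 0.73 to 22.4 ± 1.2 CPM (SD, n = 3; log2 fold change 0.36 ± 0.085, SE; edgeR adjusted p 0.0133), a call lost without itaconate replicate 2 (0.0585). Copa, a coat protein of transport vesicles and one of the most abundant of these genes, stood at 276 ± 10 and 263 ± 9.5 CPM and did not pass (edgeR adjusted p 0.394). Copa was chosen after its values were seen.

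**Figure D4:**
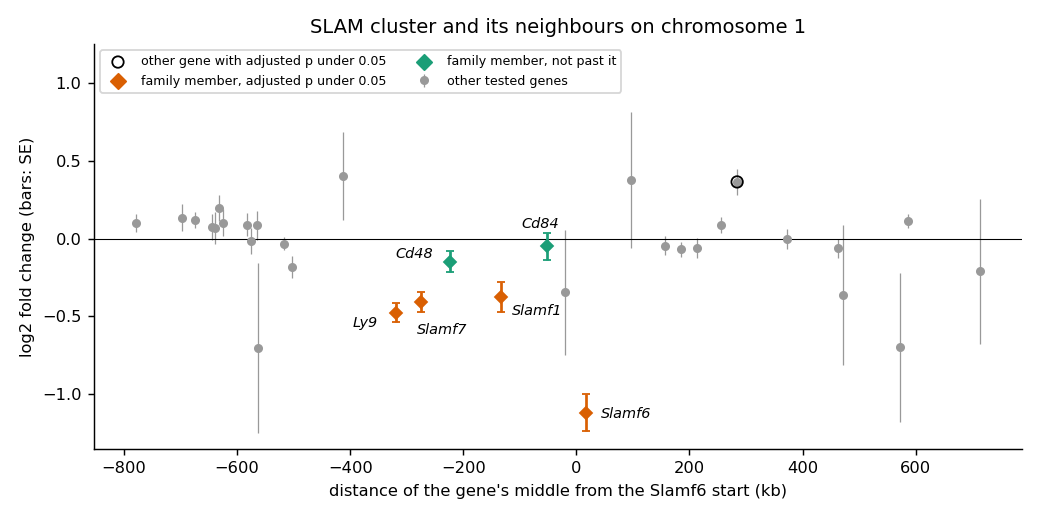
Log2 fold change (with SE) of the 6 family members on chromosome 1 (diamonds) and of 27 other tested genes near them (circles), by the distance of each gene's middle from the Slamf6 start. From left to right the members are Ly9, Slamf7, Cd48, Slamf1, Cd84 and Slamf6, of which Cd48 and Cd84 did not pass, and 1 other gene (Pea15a) passed, upward.

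Promoter sequence was at hand for 5 members in the RefSeq table (GRCm38.p6): Slamf1, Slamf6, Slamf7, Cd48 and Cd84. Slamf6 and Cd84 are shown because they are the nearest members to each other on the plus strand at that end of the cluster, and 1 passed while the other did not. The 250 bases before the start site are printed 5′ to 3′, with matches to 4 short patterns in capitals, read on both strands: TGTGGT (RUNX), CTTTGA (TCF/LEF), TGANTCA (AP-1) and GGAAGT (ETS).
Slamf6 promoter, chr1:171917212-171917461, plus strand: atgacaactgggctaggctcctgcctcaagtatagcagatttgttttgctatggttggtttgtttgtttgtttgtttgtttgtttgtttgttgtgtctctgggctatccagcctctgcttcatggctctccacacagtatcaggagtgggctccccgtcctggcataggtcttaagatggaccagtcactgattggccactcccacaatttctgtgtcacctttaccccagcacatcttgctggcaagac
Cd84 promoter, chr1:171839447-171839696, plus strand: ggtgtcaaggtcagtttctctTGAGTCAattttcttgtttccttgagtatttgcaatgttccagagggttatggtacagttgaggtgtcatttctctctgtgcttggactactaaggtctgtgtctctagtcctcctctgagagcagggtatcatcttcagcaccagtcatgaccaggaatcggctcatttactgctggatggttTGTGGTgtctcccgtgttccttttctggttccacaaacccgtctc
The Slamf6 window held none of the 4 patterns, and the Cd84 window held 1 TGANTCA and 1 TGTGGT. Among 32851 mouse promoter windows of that length, 6.75% held TGANTCA, 14.05% TGTGGT, 13.83% CTTTGA and 19.74% GGAAGT. Slamf1 held none of them, Slamf7 held 1 TGANTCA, and Cd48 held 1 CTTTGA and 1 TGTGGT. These matches describe the letters and say nothing of binding.

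The rest of the family was close to absent. Cd244a, the other receptor of CD48, had a mean of 0.316 CPM in control and 0.384 CPM in itaconate libraries, and Slamf8 and Slamf9, receptors of myeloid cells, averaged 0.0653 and 0.0565 CPM in control and 0.0616 and 0.068 CPM in itaconate libraries. None of the 3 passed the filter on low counts. Sh2d1b1 and Sh2d1b2, which encode the SAP relatives EAT-2 and ERT, had 2 counts and 1 count over the 6 libraries together, so the transcript of the adaptor that pairs with Slamf7 was barely counted in these libraries. Sh2d2a, which encodes the T cell SH2 adaptor TSAd, rose from 269 ± 10 to 357 ± 14 CPM (SD, n = 3; log2 fold change 0.41 ± 0.048, SE; edgeR adjusted p 0.000136). Sh3bp2, an adaptor with an SH2 domain that binds SYK-family kinases, stood at 52.3 ± 4.5 and 50.7 ± 1.7 CPM and did not pass.

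Of 20 tested genes of SLAM and SAP signalling, 6 rose, none fell and 14 did not pass, with a median log2 fold change of 0.06, beside 12.0% called either way among all tested genes. Inpp5d, which encodes the inositol phosphatase SHIP-1, rose from 95.5 ± 1.8 to 120 ± 2.0 CPM (0.33 ± 0.048, SE; edgeR adjusted p 0.000714). Plcg1, the phospholipase that starts calcium signals, rose from 129 ± 1.5 to 151 ± 4.8 CPM (0.23 ± 0.047; edgeR adjusted p 0.00643). The other risers were Csk and Ptpn6 (SHP-1), an inhibitory kinase and phosphatase, the adaptor Dok1, and Vav1, an exchange factor behind FYN, with log2 fold changes of 0.21, 0.20, 0.31 and 0.16 (edgeR adjusted p 0.00666, 0.017, 0.0207 and 0.0365). Vav1 passed in none of the 6 analyses with 1 library left out, Ptpn6 and Dok1 in 3 of 6 and Csk in 5 of 6. Fyn, the kinase that SAP recruits, stood at 212 ± 12 and 219 ± 8.0 CPM (edgeR adjusted p 0.631), and Ptpn11, the phosphatase SHP-2, at 129 ± 3.3 and 122 ± 4.6 CPM (edgeR adjusted p 0.366). Csk, Ptpn6, Dok1, Vav1, Fyn and Ptpn11 were chosen after their values were seen. Of these 20 genes 2 were called when control replicate 2 was left out, and none with offsets for effective length or on TPM values.

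Of 6 genes whose proteins bind the CD2 tail or act behind it, 1 fell and 5 did not pass, with a median of -0.17, beside 12.0% called either way and 5.36% lower among all tested genes. Nothing about the list is read from 1 call. Sh3kbp1, the adaptor CIN85, a relative of the CD2-binding protein CD2AP, fell from 162 ± 4.8 to 130 ± 8.5 CPM (log2 fold change -0.32 ± 0.054, SE; edgeR adjusted p 0.00189). That call was lost on TPM values (limma adjusted p 0.0633).

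Of 11 genes that are expressed with Slamf6 in stem-like CD8 T cells, 2 fell, 1 rose and 8 did not pass, with a median of 0.11, beside 5.36% called lower and 6.68% higher among all tested genes. Ccr7, the chemokine receptor that guides T cells to lymph nodes, fell from 280 ± 15 to 222 ± 13 CPM (SD, n = 3; log2 fold change -0.33 ± 0.055, SE; edgeR adjusted p 0.00143). Eomes, a transcription factor of memory cells, passed narrowly, at 103 ± 5.9 and 123 ± 14 CPM (0.26 ± 0.076; edgeR adjusted p 0.0477), and passed in 6 of 16 alternative analyses. Tcf7, the factor that defines the stem-like state, stood at 206 ± 16 and 226 ± 17 CPM and did not pass (0.13 ± 0.066; edgeR adjusted p 0.223). Tcf7 was chosen after its values were seen.

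**Figure D5:**
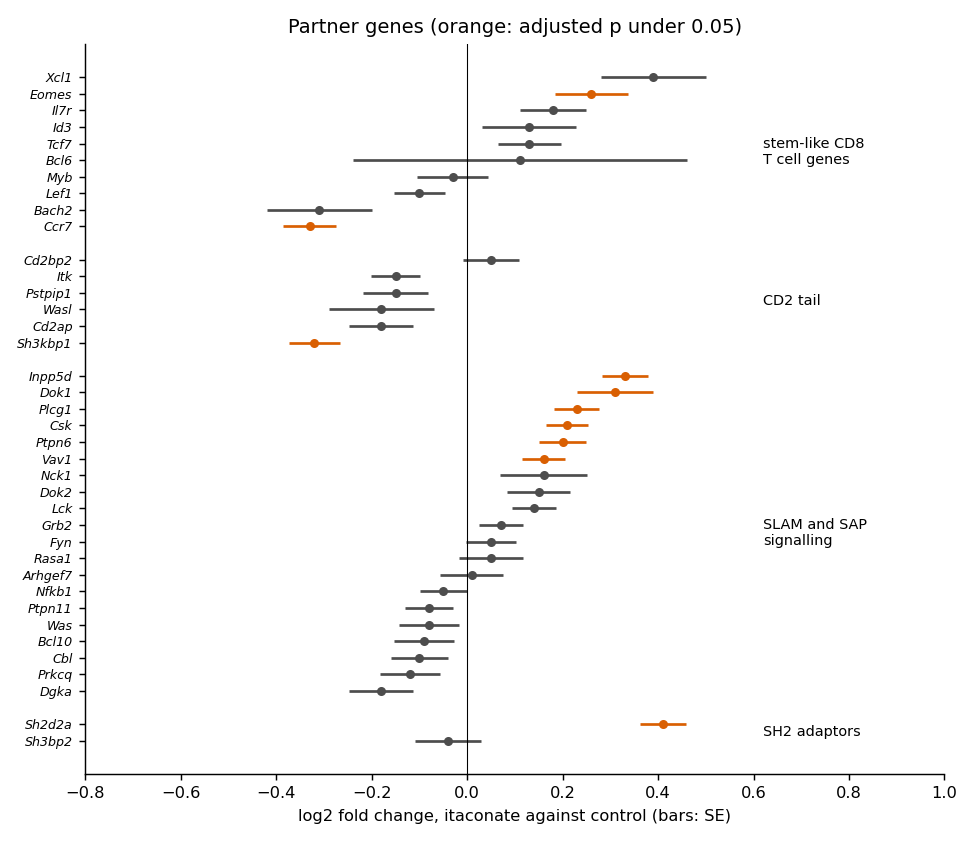
Log2 fold change (with SE) of tested partner genes in 4 lists (1 gene is not shown), itaconate against control, with genes past an adjusted p of 0.05 in orange. The 6 orange genes of SLAM and SAP signalling all lie above 0 (0.16 to 0.33), and Ccr7 lies at -0.33.

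The genes whose pattern over the 6 libraries was most like that of Slamf6 were sought among the 8262 genes averaging 10 CPM or more, by the root mean square difference of log2 CPM relative to the control mean. The nearest was St6gal1, a sialyltransferase, at 0.119, followed by Gbp5, an interferon-induced GTPase, at 0.156. Bnip3l, a mitophagy receptor, at 0.193, Tnfsf8, the ligand of CD30, at 0.194, and Gbp2, another interferon-induced GTPase, at 0.197, came next. St6gal1 went from 26.5 ± 2.6 CPM (SD, n = 3) to 13.4 ± 0.23 CPM, beside 28.5 ± 5.06 and 13.2 ± 0.689 CPM for Slamf6. Gbp2 was the most variable of the 5, at 242 ± 47 and 119 ± 19 CPM. Since likeness over 2 groups of libraries is mostly likeness in the difference between them, this is a description of these 6 libraries.

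The label of the cells was checked against markers. Of 7 CD8 T cell markers 2 rose, Cd8a (497 and 645 CPM on average) and Gzmb, a granule protease of killer cells, and the summed level was 5650 to 6290 CPM in control and 6420 to 6940 CPM in itaconate libraries. Cd8a ranged from 472 to 659 CPM and Cd3e, a chain of the T cell receptor complex, from 168 to 192 CPM, while Cd4 lay between 2.0 and 5.79 CPM. SLAM receptors are also made by B cells, NK cells and myeloid cells. Of 7 B cell markers none was called, and their summed level was 273 to 294 CPM in control and 296 to 322 CPM in itaconate libraries, nearly all of it Ighm (258 to 311 CPM), with Ms4a1 at most 2.53 CPM in every library. Of 10 markers of macrophages and dendritic cells none of the 4 tested was called, with sums of 50.5 to 72.5 CPM in control and 38.9 to 90.4 CPM in itaconate libraries, most of it Cd74, and Csf1r and Adgre1 below 0.3 CPM. Of 6 NK cell markers 1 of 2 tested rose, Eomes, which CD8 T cells also make, with sums of 96.9 to 109 and 111 to 139 CPM and Ncr1 below 0.3 CPM throughout. Of 4 CD4 T cell markers 1 rose, Foxp3, with sums of 8.60 to 11.7 and 18.9 to 23.5 CPM. Markers of innate-like T cells summed to at most 2.83 CPM, and those of neutrophils and platelets to at most 3.56 CPM, with Ly6g, Pf4 and Ppbp at 0 in every library. The part of such cells in the members' values was not tested.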

How the data were processed

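RNA-seq measured gene expression in 6 libraries of mouse CD8+ T cells. The authors deposited 1 RSEM-style table per library, with expected counts (estimated reads or fragments per gene, not normalised) and TPM values scaled by effective length, per the file headers; the deposited FPKM values were not used. The tables' length columns, in bases, are the authors' abundance-weighted means over a gene's transcripts, per the file headers. Bowtie 0.12.2 and the builds mm8 and mm10 are listed, with no role, per the submitters' processing notes. Annotation release, strand setting and trimming: not given in the sources used here.

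Expected counts were rounded (5.987% to 6.931% of genes per library were not whole, beyond 0.001), filtered with edgeR's filterByExpr (minimum count 10, minimum total 15), scaled with TMM factors of 0.9866 to 1.017, and tested in all 6 libraries with edgeR 4.0.16 (R 4.3.3; quasi-likelihood, two-sided), with Benjamini-Hochberg adjustment over 12350 genes. The test was checked first on simulated counts that gave all genes the same dispersion. That check set no requirement for recovering changes as small as those of most members that fell. The SE of a log2 fold change was derived from this test, as its absolute value over the square root of the test's F statistic. Alternatives, which include DESeq2 1.42.0 and limma 3.58.1, are in the closing section. Pairs of libraries within a group differed by 4.9 to 16.9 in mean chi-square per gene, where a resequenced copy would give about 1. Same-numbered libraries were not paired (correlations of deviations 0.113, 0.031 and 0.003).

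Members and gene lists were chosen with earlier results of these data known. The rule for named genes takes all members, the other family receptors and adaptors, from each list at most 2 genes per direction, by smallest adjusted p, called genes near the cluster and the 5 genes most like Slamf6. Some genes of the lists are counted but not reported here by name. Positions come from GENCODE M21 (GRCm38), promoters from RefSeq (GRCm38.p6).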

Additional observations from a re-analysis of the deposited data

How the results depend on the processing

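Slamf6, Ly9 and Slamf7 passed the threshold in all 16 alternative analyses, with log2 fold changes of -1.31 to -0.96, -0.54 to -0.41 and -0.56 to -0.39. Slamf1 passed in 9, and its log2 fold change over all 16, passed or not, was -0.46 to -0.28. The count of members that fell was 4, or 3 where Slamf1 was lost, and none rose in any of them. Among members that did not pass, 2 turned sign. Cd84 turned to 0.016 without control replicate 1 (it reached -0.111 with another library left out, and -0.157 and -0.162 on the TPM scales). Sh2d1a, at 0.034 in the main analysis, turned to -0.049 on log2(TPM + 1) and on log2(TPM + 0.5). It also turned to -0.068 without control replicate 1 and to -0.053 without itaconate replicate 2. With any other library left out it lay between 0.013 and 0.137. Over all genes 1487 were called, against 340 on log2(TPM + 1) (39.1% higher, where the main analysis had 55.5%), 366 on log2(TPM + 0.5), 567 with effective-length offsets and 726 to 1400 with 1 library left out, fewest without control replicate 2. With the replicate block 2419 genes were called, and 3 of 6 libraries correlated best with their own number; the block moved the CD2 list from 1 to 3 and the stem-like list from 3 to 6 calls, and the members' calls were the same 4. The stem-like list had 5 calls with no filter or with DESeq2, and 2 to 4 with 1 library left out. The CD2 list had 2 calls with no filter, 0 on either TPM scale and 1 to 2 with 1 library left out. The SLAM and SAP signalling list (6 calls) had 0 on either TPM scale and with effective-length offsets, and 2 to 6 with 1 library left out. The genes near the cluster had 0 calls on either TPM scale and 0 to 1 with 1 library left out. With 3 libraries a group, differences as small as that of Cd48 are at the edge of what these data resolve. The cause of these changes was not tested.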
